A study of Bos taurus with 2 samples.

Results

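The mitochondrial genome was read on this bovine array by 44 probes of 51280. Of these, 24 carried the gene name of a mitochondrial protein-coding gene (ND1, ND2, ND4, ND4L, ND5, ND6, COX2, COX3, ATP6, ATP8 or CYTB), and 20 were cDNA clones with ORCS names that the array's annotation describes as similar to 12S rRNA (4 probes) or 16S rRNA (16 probes). The clones were taken by the abbreviation rRNA, since the words ribosomal RNA spelled out in full after 12S or 16S matched 0 probes. Of the 13 gene names looked for, 11 had a probe, and COX1 and ND3 had none under that name. All 44 lie on the mitochondrial chromosome (chrM, in the build that the file headers name, HGSC Btau_3.1), which holds 52 probes, and the other 8 are described after them.

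The study set spermatozoa of high-fertile breeding bulls against spermatozoa of low-fertile ones, all HF crossbreds of Bos taurus, with male sex and total RNA common to both groups. Each group was 1 array, so no difference below has a replicate check or a test, and each compares these 2 arrays rather than the groups. The labels give neither the bulls' ages nor how many bulls stand behind an array. RNA was primed with oligo-dT, which favours RNA with a run of A, and was read as Cy3-labelled cRNA. In such bulk RNA, fewer cells of a type and less RNA per cell cannot be told apart.

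Mitochondrial DNA encodes core subunits of the respiratory chain and ATP synthase together with the 12S and 16S rRNAs, the RNAs of the small and large subunits of the mitochondrial ribosome. Both strands are transcribed into long precursors that are cut, largely at the tRNAs, into single RNAs, and most mature mitochondrial mRNAs receive a short poly(A) tail. The 12S and 16S rRNA genes are neighbours separated by a tRNA gene, with ND1 beyond the 16S gene, in the current bovine annotation (ARS-UCD2.0, used for gene order only). In spermatozoa, mitochondria are wrapped around the flagellum as the mitochondrial sheath of the midpiece.

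Probes for which the results differ along the rRNA genes are shown first, each as the array's own 60 bases written 5′ to 3′. Capitals mark a run of at least 18 bases that 2 of the chrM probes share, on the same strand or as reverse complements. Positions are those of the array's annotation. For some probes they span fewer than 60 bases (chrM:2656-2713) or more (chrM:2911-2972). How exactly each probe matches the genome was not checked. A probe whose coordinates are listed in ascending order is called ascending, the orientation of all named protein-coding genes here other than ND6, and the rest are called descending. The next 3 probes are ascending, at the 12S end.
ORCS13625, A_73_P100450, chrM:584-642: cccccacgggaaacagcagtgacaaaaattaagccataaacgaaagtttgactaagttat
ORCS12926, A_73_P100416, chrM:962-1021: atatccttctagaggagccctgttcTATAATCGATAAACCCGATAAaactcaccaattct
ORCS12829, A_73_P100411, chrM:986-1047: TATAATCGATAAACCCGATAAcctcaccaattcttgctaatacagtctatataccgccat
The next 6 are the ascending clone probes at the 16S end.
ORCS11247, A_73_P100326, chrM:1953-2010: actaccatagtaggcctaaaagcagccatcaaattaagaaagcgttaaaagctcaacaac
ORCS11713, A_73_P100356, chrM:2124-2183: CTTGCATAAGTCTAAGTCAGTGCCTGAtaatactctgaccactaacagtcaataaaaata
ORCS10874, A_73_P100287, chrM:2656-2713: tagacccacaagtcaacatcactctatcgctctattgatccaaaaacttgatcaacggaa
ORCS10108, A_73_P100221, chrM:2750-2807: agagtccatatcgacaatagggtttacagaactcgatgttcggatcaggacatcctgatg
ORCS10096, A_73_P100216, chrM:2815-2875: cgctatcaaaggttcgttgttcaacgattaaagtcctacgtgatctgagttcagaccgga
ORCS13239, A_73_P100441, chrM:2911-2972: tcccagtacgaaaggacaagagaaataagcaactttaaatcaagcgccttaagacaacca
The last 4 are descending probes of the 16S end, and the first of them is in part the reverse complement of the ORCS11713 probe.
A_73_P099337, chrM:2094-2150: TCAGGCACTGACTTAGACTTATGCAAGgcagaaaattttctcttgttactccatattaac
ORCS11070, A_73_P099361, chrM:1725-1784: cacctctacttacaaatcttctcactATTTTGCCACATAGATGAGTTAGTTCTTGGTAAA
ORCS10096, A_73_P099272, chrM:2497-2558: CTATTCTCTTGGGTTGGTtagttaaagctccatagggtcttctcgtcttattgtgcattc
ORCS11731, A_73_P100362, chrM:2569-2630: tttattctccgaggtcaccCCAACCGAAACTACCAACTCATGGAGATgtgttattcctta
ORCS12829 is described as similar to 16S rRNA but lies at the 12S end, where it shares 21 bases with the ORCS12926 probe, so it is grouped there by position. No probe placed off chrM shares 18 or more bases with any chrM probe.

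Signals below are background-subtracted intensities on a linear scale, with the scanner's own error for that spot. A difference is the log2 signal of the high-fertile array minus that of the low-fertile array, after each array was divided by its 75th percentile (148.6 and 186.3) over the probes well above background on both. A probe is called measured where it was well above background on both arrays. Of the 44 probes, 12 were measured, 6 were well above background on the low-fertile array only, 0 on the high-fertile array only, and 26 on neither. Of all 51280 probes, 27.6% were measured, so the members' share was near that of the array.

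At the 12S end the 3 ascending probes were bright on both arrays and differed little between them. The ORCS13625 probe read 267 ± 27.2 on the high-fertile array and 328 ± 33.5 on the low-fertile, a difference of 0.03 after scaling. The ORCS12926 probe read 546 ± 54.9 and 649 ± 65.3, a difference of 0.08. The ORCS12829 probe read 708 ± 70.9 and 823 ± 82.5, a difference of 0.11. Each of these differences is smaller than its scanner error of about 0.2, and their median was 0.08 (SD 0.04 over 3 probes, of which a pair shares bases). The sign of so small a difference followed the scaling: the median was -0.11 under quantile normalization, -0.11 under loess and -0.52 under spike-in scaling.

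At the 16S end the 3 measured ascending clone probes were lower on the high-fertile array by 5.39- to 8.84-fold. The ORCS10108 probe read 33.6 ± 5.81 on the high-fertile array and 372 ± 37.8 on the low-fertile, a difference of -3.14 (8.84-fold after scaling). The ORCS10874 probe read 55.3 ± 7.60 and 484 ± 48.9, a difference of -2.80 (6.98-fold). The ORCS10096 probe at chrM:2815-2875 read 34.7 ± 5.74 and 235 ± 24.3, a difference of -2.43 (5.39-fold). All 3 probes were dim but well above background on the high-fertile array, where the 95th percentile of the negative control spots was 5.71, and bright on the low-fertile array. Among the 14154 probes measured on the array, these differences ranked 4, 6 and 14 from the lowest.

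2 further ascending 16S probes were well above background on the low-fertile array only. The ORCS11713 probe read 17.2 ± 4.88 and 137 ± 15.2, which gives at least 4.84-fold lower on the high-fertile array. The ORCS11247 probe read 22.0 ± 5.11 and 110.9 ± 12.8, at least 3.91-fold lower. Such bounds, here and below, set the bright signal against the lowest signal well above background on the other array (22.6 on the high-fertile array and 30.3 on the low-fertile), or against the dim probe's own signal if that is higher. They take no account of the scanner error of either signal. The ORCS13239 probe, nearest to ND1, was at the level of the negative controls on both arrays, with 4.90 and 6.22. Thus 5 of the 6 ascending 16S clone probes were well above background on the low-fertile array and 3 on the high-fertile array. Of all spots other than controls, 32.9% were well above background on the low-fertile array and 33.2% on the high-fertile array.

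The median difference of the 3 measured ascending clone probes was -2.80 at the 16S end (SD 0.36) and 0.08 at the 12S end. The gap between these medians was -2.88, or 7.37-fold, and no constant scaling of an array can alter it. The ascending TC447127 probe (chrM:2964-3023), with a difference of -0.64, is not one of these clones and entered neither median. Signals of different probes are not comparable as RNA levels, so each comparison here is of 1 probe between the arrays. The 16S difference was smaller with normexp on the unprocessed signals and an added offset of 50, where the median was -1.89. Such an offset draws the differences of dim probes toward 0. Its part was not separated from that of the background correction. The spots lay apart on the slide. Neighbouring spots other than controls were counted whether or not they were well above background. Around the ORCS10108 spot, 1 of 8 such neighbours was at least 2-fold lower and their median difference was -0.10. These were 1 of 8 and -0.17 around the ORCS10096 spot, and 3 of 8 and -0.69 around the ORCS10874 spot. Over the whole array, without a filter on dim probes, 3742 of 51280 probes were at least 2-fold lower. The part of spot position in the differences was not tested.

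Descending rRNA clone probes, which carry the opposite strand, were dim. Of the 9 at the 16S end, 3 were measured, 1 was well above background on the low-fertile array only and 5 on neither. The ORCS11731 probe read 33.2 ± 5.60 on the high-fertile array and 85.6 ± 10.5 on the low-fertile, a difference of -1.04 (2.06-fold). The descending ORCS10096 probe read 40.6 ± 6.53 and 101.4 ± 12.2, a difference of -0.99. The ORCS11070 probe read 49.96 ± 6.86 and 109.7 ± 12.8, a difference of -0.81. The first of these lay just inside and the next just outside the 2-fold threshold, with no gap between them that exceeds their scanner errors. The ORCS10120 probe, which shares 34 bases with the ORCS11070 probe, read 9.38 and 51.1, at least 1.80-fold lower. Of the 5 probes on neither array, 1 read 5.54 and 28.03 (A_73_P099431), although it shares 28 bases with the ORCS11731 probe, and the other 4 read 4.55 to 5.09 on the high-fertile array and 6.15 to 8.51 on the low-fertile.

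Among those 4, A_73_P099337 shares 27 bases as reverse complement with the ascending ORCS11713 probe, the sole such pair among the chrM probes. It was below the criterion on both arrays (4.60 and 8.51), whereas the ORCS11713 probe was below it on the high-fertile array only (17.2 and 137). At the 12S end, the descending ORCS13861 probe (chrM:781-841) read 26.5 ± 5.81 and 43.7 ± 8.59, a difference of -0.40, and the descending A_73_P099392 probe (chrM:868-927) was at background on both arrays with 4.58 and 6.19. The median of the 4 measured descending probes of both genes was -0.90 (SD 0.29).

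Of the 12 measured members, 4 were at least 2-fold lower on the high-fertile array and 0 at least 2-fold higher. Over all 14154 measured probes, 4.94% were 2-fold apart or more, 2.80% with the lower and 2.14% with the higher signal on the high-fertile array. Differences were below 0 for 9 of the 12 members and for 50.8% of all measured probes. Beyond 4-fold, 3 members were lower, against 0.191% of all measured probes. The members' median difference was -0.60 (SD 1.18), and the median of all measured probes was -0.005. The 4 probes past the threshold are all clones described as 16S, 3 ascending and 1 descending (ORCS11731), and the 3 ascending ones lie in 1 gene, so they are not independent readings. The ORCS11731 probe passes 2-fold by little: its difference was -0.49 with normexp and -0.94 to -0.98 with quantile, loess, the series matrix values, the median or the 75th percentile over all probes, each of which leaves 3 members past 2-fold.

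Most probes carrying a protein-coding gene's name were not well above background. Of these 24 probes, 2 (ND1 and ND5) were measured, 3 were well above background on the low-fertile array only and 19 on neither. Most probes of the array were not measured either: 27.6% of all 51280 were. No measured one was 2-fold apart. The 19 read 4.49 to 22.4 on the high-fertile array and 6.21 to 32.2 on the low-fertile array, where the medians of the negative control spots were 4.89 and 6.67. Of the 24 probes, 22 had the higher unscaled signal on the low-fertile array. The array as a whole was also brighter there, and no direction is read from probes at background.

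Complex I, which takes electrons from NADH, has its mitochondrial subunits read by probes for ND1, ND2, ND4, ND4L, ND5 and ND6. For ND1, the probe below at chrM:3967-4026 read 30.8 ± 5.72 and 41.2 ± 7.63, a difference of -0.09, well within its scanner error.
ND1, A_73_P053456: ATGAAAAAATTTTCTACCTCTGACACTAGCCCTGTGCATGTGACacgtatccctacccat
ND1, A_73_119316: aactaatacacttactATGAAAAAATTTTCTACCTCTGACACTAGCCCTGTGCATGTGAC
The second ND1 probe shares 44 bases with the first and read 14.6 and 21.2, below the criterion on both arrays. A further ND1 probe read 12.8 and 15.0. The ND5 probe at chrM:13833-13892 was measured as well, with 26.1 ± 5.56 and 37.6 ± 7.53, a difference of -0.20.
ND5, A_73_115497: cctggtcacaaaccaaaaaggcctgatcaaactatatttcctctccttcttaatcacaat
ND1 is the gene next to 16S rRNA, and its measured probe lay close to the median of all probes. The measured ascending 16S clone probes were 5.39- to 8.84-fold lower, and the TC447127 probe between them and ND1 had a difference of -0.64. For ND4, 1 probe read 15.7 and 32.2 and the other 5.02 and 13.3. ND2 read 5.25 and 7.92, and ND4L 4.49 and 6.23. ND6, the protein-coding gene of the opposite strand, had 1 probe in 2 spots, with 5.24 and 5.40 on the high-fertile array and 7.72 and 7.97 on the low-fertile array. All of these were on neither array well above background.

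Cytochrome b (CYTB), the mitochondrial subunit of complex III, had 5 probes. The probe at chrM:15358-15417 read 9.39 ± 4.78 and 36.3 ± 7.23, at least 1.28-fold lower on the high-fertile array. The other 4 were on neither array, and they did not lean one way. A_73_P099916 read 22.4 on the high-fertile array and 9.01 on the low-fertile, while A_73_112432, which shares 27 bases with it, read 5.49 and 20.0. The last 2 read 12.3 and 17.7, and 4.60 and 6.21.

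Complex IV, cytochrome c oxidase, was read by probes for COX2 and COX3, core subunits of the enzyme. The COX3 probe at chrM:9671-9730 read 17.9 ± 5.01 and 36.0 ± 7.35, at least 1.27-fold lower on the high-fertile array. The other 2 COX3 probes, which share 25 bases, were at background with 6.10 and 8.30, and 4.65 and 6.31. The 3 COX2 probes read 5.10 to 5.77 on the high-fertile array and 10.2 to 14.4 on the low-fertile and were on neither well above background. ATP synthase, complex V, has the membrane subunits ATP6 and ATP8 from this genome. The ATP6 probe at chrM:8908-8967 read 13.2 ± 4.83 and 36.5 ± 7.53, at least 1.29-fold lower. The other ATP6 probes share 32 bases and read 19.0 and 25.1, and 20.7 and 15.4. ATP8 had 2 spots of 1 probe, with 4.75 and 7.99 on the high-fertile and 7.67 and 6.93 on the low-fertile array.

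Bounds for the 3 mRNA probes seen on the low-fertile array only, 1.27- to 1.29-fold, were all below 2-fold. Of the 6 members seen on that array only, 2 had a bound of at least 2-fold, both of them 16S probes. Over the array, 1978 probes were seen on the low-fertile array only, and 16.2% of them had a bound of at least 2-fold. In the other direction 2119 probes were seen on the high-fertile array only, and 6.65% had such a bound.

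The 8 other chrM probes carry transcript or clone names. A_73_103763 and A_73_P097576, which the array's descriptions assign to COX1, read 52.7 ± 7.54 and 74.4 ± 10.9, and 48.7 ± 6.63 and 88.9 ± 10.8, differences of -0.17 and -0.54. The other COX1 probe, A_73_P099546, was at background on both arrays with 4.88 and 6.69. TC447127 at chrM:2964-3023 is ascending and begins within the positions of the ORCS13239 probe (chrM:2911-2972). It read 29.6 ± 5.62 and 57.9 ± 8.66, a difference of -0.64 (1.56-fold). Its description does not name 16S rRNA, and whether it lies in that gene was not looked up. If it does, the difference there was smaller than at the 3 measured ascending 16S clone probes. The remaining 4, all descending, were on neither array well above background. Cytosolic rRNA gave differences below 2-fold as well. A clone similar to 28S rRNA read 2762 ± 276 and 4254 ± 425, a difference of -0.30, and 18S rRNA read 1495 ± 150 and 2055 ± 206, a difference of -0.13.

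GC content was 33.3% to 45.0% over the 44 members, with a median of 38.3% for the rRNA clones and 41.7% for the mRNA probes, and the median of all probes was 45.0%.

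Nuclear genes that make, process or translate mitochondrial RNA were read beside the members. Over all 11619 measured genes, 2.44% were lower by 2-fold or more on the high-fertile array and 1.88% were higher by as much, with a median of -0.0003. Of 18 genes of mitochondrial transcription and DNA replication, 16 had a probe, 6 were measured and none was 2-fold apart, with a median of -0.16. TFB1M, which in human cells dimethylates the 12S rRNA, had a difference of 0.46, and MRPL12, a protein of the mitochondrial ribosome, 0.17. POLRMT, the mitochondrial RNA polymerase, had -0.18 (SD 0.11 over probes), POLG2, the accessory subunit of the mitochondrial DNA polymerase, -0.64 (SD 0.37), and TWNK, the replicative helicase, -0.45.

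Of 32 gene names listed for mitochondrial RNA processing, modification and decay, 28 had a probe, 10 were measured, 1 was at least 2-fold higher, 0 lower, and the median was -0.05. FASTKD3, a mitochondrial RNA-binding protein, was the one past 2-fold, with a difference of 1.07 from the 1 measured of its 2 probes. FASTK, of the same family, and the rRNA methyltransferase MRM1 had 0.21 each. REXO2, an oligoribonuclease, had -0.56 (SD 0.03), GRSF1, a protein of mitochondrial RNA granules, -0.52, and SLIRP, a stabiliser of mitochondrial mRNA, -0.32. Of 14 genes of mitochondrial translation, 2 were measured, the release factor MTRFR with 0.21 and the elongation factor GFM2 with -0.41, and neither was 2-fold apart.

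Nuclear partners of the members, subunits of complexes I, III, IV and V, were measured for 26 of 36 genes, with 1 at least 2-fold higher, 3 lower and a median of -0.01. COX6C, a subunit of complex IV, had a difference of 1.23, ATP5MC2, a c-ring subunit of ATP synthase, 0.53 (SD 0.75 over probes) and COX4I1, of complex IV, 0.44. ATP5MC3, also of the c-ring, had -1.18, COX7A2, another subunit of complex IV, -1.09 (SD 0.21), and UQCRC2, a core subunit of complex III, -1.02 (SD 0.48). For ATP5MC3, 1 of 2 probes was measured, and for UQCRC2, 3 of 4. Of 18 genes that mark mitochondrial mass or the sheath, 12 were measured, 1 was at least 2-fold lower, 0 higher, and the median was -0.09. Citrate synthase (CS) had -1.02 from the 1 measured of its 3 probes. The import receptor TOMM20 had -0.65 (SD 0.10) and the outer membrane channel VDAC3 -0.51. The prohibitins PHB1 and PHB2 had 0.64 (SD 0.32) and 0.33, and malate dehydrogenase MDH2 had 0.20. The medians of the 5 lists lay from -0.16 to -0.01.

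The labelled cell type was checked against its markers and those of other cells. Of 12 spermatid and sperm markers 7 were measured, with summed signals, 1 value per gene, of 4.46 and 4.31 times the arrays' 75th percentiles on the high- and low-fertile array. The protamine PRM1 had a difference of -1.10 and the transition protein TNP2 1.22 (1 of 2 probes measured), while PRM2, AKAP4, SPATA18, SMCP and TSSK6 were not measured. Of 9 leukocyte markers 7 were measured, CD3E and CSF1R not, with summed signals of 15.4 and 15.0. Differences were above 0 for 5 of the 7, with 0.61 for ITGB2 (SD 0.51 over probes), 0.34 for LYZ (SD 0.88), 0.23 for CD79A, 0.11 for CD68 and 0.06 for CD52, and below 0 for PTPRC with -0.51 (SD 0.46) and CD14 with -0.15 (SD 0.07). The median was 0.11. Summed over probes rather than genes, the leukocyte markers' signals were 101 and 137. Epithelial markers were measured for 2 of 6 genes (summed signals 1.56 and 1.30), erythroid markers for 1 of 4 (0.81 and 0.72) and testis somatic cell markers for 5 of 6 (3.95 and 4.06). The part of other cells in the 16S difference was not tested.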

How the data were processed

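Each of the 2 arrays, 1 per fertility group by the labels, was read in 1 colour. The deposited scanner tables hold spot intensity on a linear scale from Agilent Feature Extraction 11.5.1.1, per the file headers, with background subtracted and the spatial trend removed in the processed signal. The deposited series matrix holds log2 values that equal the log2 processed signals plus 1 constant per array (-5.12 and -5.55, within 0.01 for 98.6% of probes), with column medians of -1.43 and -1.37. A normalization between the arrays is not given in the sources used here.

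Spots that were controls or flagged as outliers were dropped (2 probes lost), log2 processed signals were averaged per probe, and each array's 75th percentile over the probes well above background on both (27.6%, under the 50% limit) was subtracted. No spot was saturated, and on 3038 measured probes with 2 spots the spot-to-spot SD of the difference was 0.28. Each measured member had 1 spot, so this spread was not read on the members' differences. Differences are high-fertile minus low-fertile, counted from 2-fold, with no test at 1 array per group, a number that limits the precision. A gene's difference is the mean over its measured probes. Genes were named through accession or symbol in the table of ARS-UCD2.0, used for names and gene order. Every member probe is described, and of each pathway list up to 3 genes with the largest positive and up to 3 with the largest negative difference are named. The calling step was tested on simulated data. Python 3.11.15 and R 4.3.3 with limma 3.58.1 were used. Both arrays shared 1 slide, so no slide effect could be estimated. The members and lists were chosen with earlier results of these data known, and the clones were taken by the abbreviation rRNA after the tables were seen, by description and not by value.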

Additional observations from a re-analysis of the deposited data

How the results depend on the processing

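The lower difference of the ascending 16S probes held under every alternative that left them measured. Their median of -2.80 became -1.89 with normexp background correction and its offset of 50. It became -3.40 with spike-in scaling, which moves the median of all probes by about the same amount. The 12S median of 0.08 became -0.52 under spike-in scaling. Members at least 2-fold lower numbered 4, against 3 under normexp, quantile, loess, the series matrix values, scaling by all probes' 75th percentile or the median of the measured ones (each without ORCS11731), 6 under spike-in scaling, 12 of 44 without a filter on dim probes (with 1 higher), 0 of 3 under the stricter filter, which removes every probe of the 16S end, and 0 of 2 with gene-name probes alone. Over all 14154 measured probes, 303 were higher and 396 lower. These counts were 109 and 70 with normexp, 47 and 2371 with spike-in scaling, and 14 and 27 at 4-fold. They were 1940 and 3742 of 51280 probes without the filter, and 156 and 68 of 4840 under the stricter filter. Spike-in scaling moved the list medians to -0.76 for transcription and replication, -0.65 for RNA processing, -0.70 for translation, -0.61 for nuclear partners and -0.69 for mass and sheath. With the 75th percentile over all probes, 4 of these medians, all near 0, turned positive (0.05 for RNA processing, 0.0029 for translation, 0.09 for nuclear partners and 0.01 for mass and sheath). The stricter filter left 3 RNA processing genes with a median of 0.25 and 1 translation gene with 0.21. The alternative of counting gene-name probes alone was chosen after seeing the data. No paired analysis was possible because each group has 1 array. Most members were well above background on neither array, so a difference in either direction could have been missed.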
